A study of Chlorella sp. with 12 samples.

Results

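Carbonic anhydrases are zinc enzymes that interconvert carbon dioxide and bicarbonate. The alpha, beta and gamma classes share this reaction but have unrelated folds. In green algae, alpha-type enzymes such as CAH1 of *Chlamydomonas reinhardtii* work in the periplasmic space and help to supply inorganic carbon to the cell, and beta-type enzymes work inside the cell. Gamma-type proteins of plants and algae form part of mitochondrial complex I, the NADH dehydrogenase of the respiratory chain.

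The carbonic anhydrases of *Chlorella* sp. TLD6B, a green alga from the Taklimakan Desert, were taken as all unigenes (assembled transcripts) with the KEGG orthology (KO) number K01672, K01673 or K01674 or with carbonic anhydrase in the SwissProt description. This gave 63 of 155503 unigenes. All 63 carry the description, and the KO numbers add none: K01672 was assigned to 0 unigenes, K01673 to 3 and K01674 to 1. RNA of whole cultures was sequenced in 6 groups of 2 libraries each, which the study calls biological replicates. The labels do not say that they came from separate cultures, so the p-values measure the spread between these libraries. PEG1 and PEG2 cultures received PEG-6000, a polymer that withdraws water, at 0.05 and 0.1 g/mL, and Nacl1 and Nacl2 cultures received 0.1 and 0.8 M NaCl. These 4 groups were collected on day 18, as was the untreated control CK18, and the untreated control CK0 was collected on day 0. Values are deposited FPKM, that is fragments scaled for unigene length and for sequencing depth, and are given for replicate 1 and then replicate 2.

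The members are 17 alpha-type, 31 beta-type and 15 gamma-type unigenes. Beta-type members were classed by Pfam domain or KO and gamma-type members by description. Of the alpha-type members, 16 were classed by their SwissProt match after the annotation had been seen, since the Pfam carbonic anhydrase domain was assigned to none of them. The best hit in the NR protein database was from *Chlorella variabilis* for 41 members, another green alga for 10, a land plant for 9 and an oomycete for 3. Members with a land plant hit averaged 2.62 FPKM at most, and those with an oomycete hit 0.29 FPKM at most. Transcripts of the light-harvesting complexes and of the Rubisco small subunit were present in all 12 libraries, the lowest KO sum being 221.59 FPKM. Green algae and land plants both have these proteins, so their presence does not tell the sources apart.

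Most members were rare. Over the 12 libraries 11 members averaged at least 10 FPKM, 42 averaged under 1 FPKM and 3 were listed at 0 throughout. A single fragment on a unigene of about 500 bp was worth 0.14 to 0.23 FPKM, which is the depth behind the low values, and 36 to 46 members were above 0 in each library. The 63 unigenes had 24 different best NR hits. Unigenes with the same hit may be versions of 1 gene between which fragments were divided, so their single levels are uncertain, and sums by NR hit are given beside them. In all, 54 members belong to assembly cluster 31803 and are called here by their number in it, for example unigene 17814.

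The summed FPKM of all members was 731 and 1049 in CK18, against 1743 and 2968 in CK0. Along the salt series it was 731 and 1049 FPKM in CK18, 774 and 721 FPKM in Nacl1 and 801 and 714 FPKM in Nacl2. Along the PEG series it was 1201 and 1046 FPKM in PEG1 and 1207 and 1265 FPKM in PEG2. In FPKM as deposited the NaCl totals lay inside or just below the range of CK18. With all 12 libraries scaled by median ratio, as for the tests below, every NaCl total lay below it. The scaled totals were 909 and 1237 in CK18, 633 and 632 in Nacl1 and 763 and 737 in Nacl2. The make-up of the totals differed too. Alpha-type members held 60.6 and 67.1% of the summed FPKM in CK18, 36.5 and 37.7% in Nacl1 and 25.7 and 25.5% in Nacl2. Gamma-type members held 17.1 and 13.1% in CK18, 31.7 and 32.0% in Nacl1 and 54.1 and 53.1% in Nacl2, so neither share overlapped CK18 at either NaCl level. In PEG1 the alpha-type share was 63.6 and 57.8% and in PEG2 63.4 and 72.4%, around that of CK18. Beta-type totals ranged from 152 to 261 FPKM over the 12 libraries. These totals are descriptions with no test. In whole cultures, fewer cells that express a gene and less RNA of it per cell cannot be told apart.

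**Figure D1:**
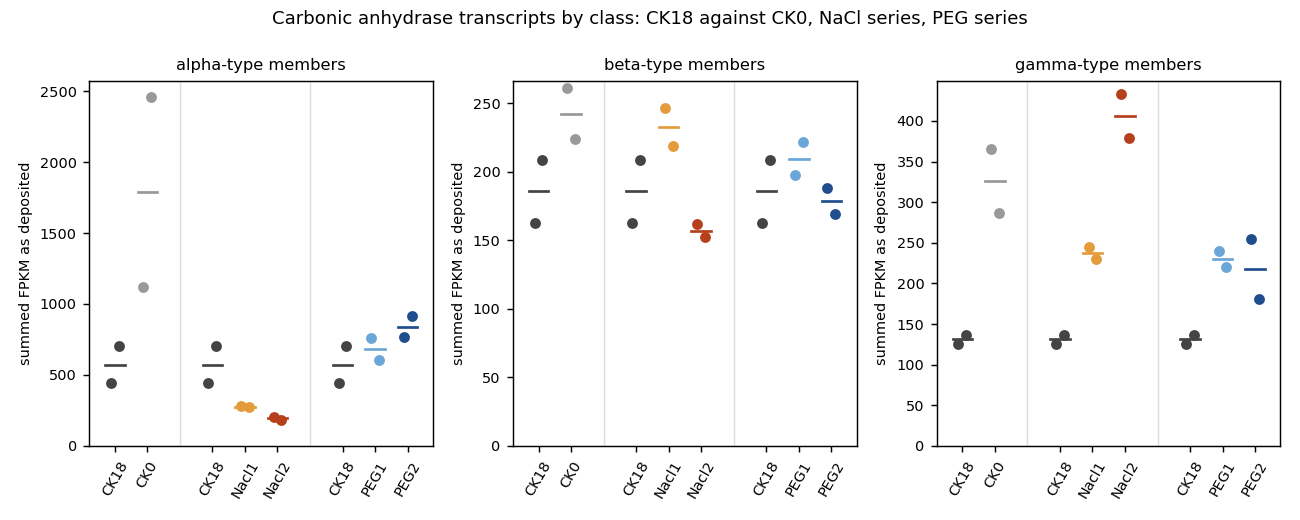
Summed FPKM of alpha-type, beta-type and gamma-type members in each library, with CK18 drawn in each section. Points are libraries and horizontal lines the mean of 2. The alpha-type total was 206 and 182 FPKM in Nacl2, against 443 and 703 FPKM in CK18, and the gamma-type total 434 and 379.5 FPKM in Nacl2, against 125 and 137 FPKM in CK18.

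Members were tested with limma on log2(FPKM + 0.1), after each library had been scaled by its median ratio to the other libraries of the fit. A log2 fold change below is on that scale, and it understates the change of low unigenes. A member was called at a Benjamini-Hochberg adjusted p under 0.05 over all unigenes tested and a log2 fold change of 1 or more in size. Relative to CK18, FPKM as deposited lay above scaled values by 0.51 in Nacl1, 0.24 in Nacl2, 0.52 in PEG1 and 0.08 in PEG2 on the log2 scale, and in CK18 relative to CK0 this difference was -0.84. A small difference in FPKM can therefore have another sign after scaling.

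In Nacl1 against CK18, 5 of 39 tested members were called, all lower, where 9.02% of all unigenes tested were called, 4.46% higher and 4.56% lower. The 5 were 4 alpha-type members and the beta-type unigene 59210, which was listed at 0 in Nacl1. In Nacl2 against CK18, 14 of 39 were called, 8 higher and 6 lower, where 35.3% of all unigenes were called, 22.4% higher and 12.9% lower. The share was close to the background. By class, 1 alpha-type member was called higher and 4 lower of 11 tested, 4 beta-type members higher and 2 lower of 19, and 3 gamma-type members higher and 0 lower of 9. Leaving out replicate 2 of CK18 gave 8 calls, and leaving out replicate 1 or 2 of Nacl2 gave 7 or 6. In Nacl2 against Nacl1, 6 of 39 members were called, 5 higher and 1 lower, where 22.6% of all unigenes were called, 14.6% higher and 7.94% lower. This count was 2 without Nacl1 replicate 1, 1 without Nacl1 replicate 2 and 0 without either Nacl2 library. The median log2 fold change of tested members was -0.03 in Nacl1 and -0.52 in Nacl2 relative to CK18, beside 0.17 and 0.19 over all unigenes tested.

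The 2 abundant members with a match to CAH1 of *Chlamydomonas reinhardtii*, a periplasmic enzyme that this alga induces when carbon dioxide is scarce, fell at both NaCl levels. SwissProt alignment scores were 157 for unigene 17814 and 156 for unigene 21127. Such matches do not show which enzyme of that alga is the counterpart of a unigene. Unigene 17814 (866 bp, NR hit CHLNCDRAFT_59546) had 87.4 and 117 FPKM in CK18, 5.93 and 2.42 FPKM in Nacl1 and 0.91 and 2.57 FPKM in Nacl2. All 4 NaCl libraries lay far below both control libraries. The log2 fold change relative to CK18 was -5.20 (SE 0.65, limma adjusted p = 0.0180) in Nacl1 and -6.18 (SE 0.65, limma adjusted p = 0.00338) in Nacl2. Unigene 21127 (941 bp), with the same NR hit, had 12.9 and 15.9 FPKM in CK18, 4.95 and 4.12 FPKM in Nacl1 and 3.87 and 4.56 FPKM in Nacl2. Its NaCl libraries also lay below the control without overlap, with a log2 fold change of -2.15 (SE 0.27, limma adjusted p = 0.0184) in Nacl1 and -1.99 (SE 0.27, limma adjusted p = 0.00602) in Nacl2. In Nacl2 both calls held under all 15 alternatives. In Nacl1 both were lost without any 1 of the CK18 or Nacl1 libraries, where 0 members were called. Both Nacl1 calls were also lost with a replicate block and with a covariate for read quality, defined below. That of unigene 21127 was lost without either Nacl2 library too.

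Other abundant alpha-type members share the NR hit CHLNCDRAFT_59547. Unigene 50890 (2193 bp) matches human carbonic anhydrase 12, a membrane enzyme with its active site outside the cell. It had 65.7 and 64.3 FPKM in CK18, 29.2 and 22.1 FPKM in Nacl1 and 19.0 and 17.7 FPKM in Nacl2, and every NaCl library lay below the control. It fell in Nacl1 with a log2 fold change of -1.86 (SE 0.19, limma adjusted p = 0.0139) and in Nacl2 with -2.06 (SE 0.19, limma adjusted p = 0.00258). The Nacl1 call was lost without any 1 of the CK18 or Nacl1 libraries, without Nacl2 replicate 2 and with read quality as a covariate. Unigene 55744 (2631 bp), with the same human match, had 99.7 and 175 FPKM in CK18 and 1.94 and 0 FPKM in Nacl1, and was listed at 0 in both Nacl2 libraries. It was called lower in Nacl1 (limma adjusted p = 0.0255) and in Nacl2 (limma adjusted p = 0.00479). No fold is given against values at 0. The Nacl1 call was lost under 11 of 15 alternatives, among them leaving out any 1 of the 6 libraries. The Nacl2 call was lost only with read quality as a covariate.

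The most abundant member of all, unigene 55133 (941 bp), has the same NR hit and matches the chloroplast alpha carbonic anhydrase 1 of *Arabidopsis thaliana*. It had 140.2 and 281 FPKM in CK18, 152 and 141 FPKM in Nacl1 and 123 and 101 FPKM in Nacl2. The control libraries lay far apart and Nacl1 overlapped them. The log2 fold change was -0.95 (SE 0.32, limma adjusted p = 0.148) in Nacl1 and -1.07 (SE 0.32, limma adjusted p = 0.0539) in Nacl2, neither of them called. With a pseudocount of 1 the Nacl2 value was called, at -1.06 (limma adjusted p = 0.0481). It was also called with a filter of a mean of at least 1 FPKM, at -1.07 (limma adjusted p = 0.0398). Without CK18 replicate 1 the Nacl2 value was -1.65.

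Not all alpha-type members were lower with NaCl. Unigene 28233 (3197 bp, NR hit CHLNCDRAFT_140736) matches CAH2 of *Chlamydomonas reinhardtii*, a close relative of CAH1 that this alga makes when carbon dioxide is plentiful. This unigene scored 152 against CAH2 and 1315 against its NR hit, so the match does not make it the counterpart of CAH2. It had 0.41 and 0.20 FPKM in CK18, 0.64 and 0.11 FPKM in Nacl1 and 4.70 and 5.27 FPKM in Nacl2. The Nacl2 libraries stood above those of CK18 and Nacl1, with a log2 fold change of 3.51 (SE 0.74, limma adjusted p = 0.0189) relative to CK18 and 3.87 (SE 0.74, limma adjusted p = 0.0224) relative to Nacl1. The call against CK18 was lost without any 1 of the CK18 or Nacl2 libraries, and that against Nacl1 without Nacl1 replicate 2 or either Nacl2 library. Both were also lost with read quality as a covariate, that is with the libraries in 2 classes by their share of high-quality bases. Unigene 27819 (1411 bp, NR hit CHLNCDRAFT_11032), which matches a bacterial enzyme of *Pectobacterium*, had 32.4 and 46.9 FPKM in CK18, 83.4 and 97.9 FPKM in Nacl1 and 52.0 and 49.6 FPKM in Nacl2. Both NaCl groups lay above CK18 in FPKM, Nacl1 the more. After scaling the log2 fold change was 0.70 (SE 0.23, limma adjusted p = 0.132) in Nacl1 and 0.14 (SE 0.23, limma adjusted p = 0.659) in Nacl2, and neither was called. On FPKM as deposited the Nacl1 value was called higher, at 1.21 (limma adjusted p = 0.0323), as was the sum of its NR hit CHLNCDRAFT_11032, at 1.26 (limma adjusted p = 0.0071).

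**Figure D2:**
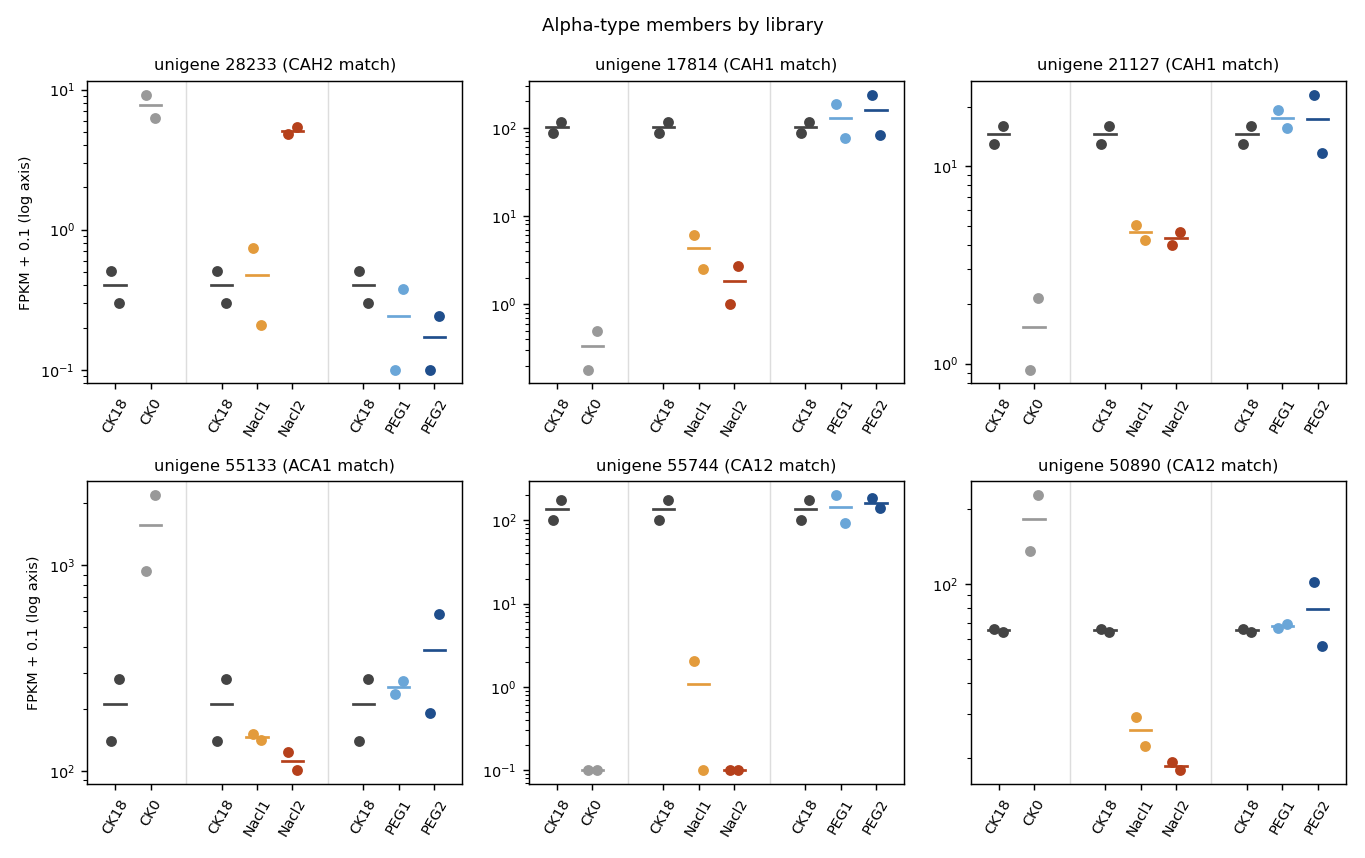
FPKM + 0.1 of 6 alpha-type unigenes in each library on a log axis, with CK18 drawn in each section. Points are libraries and horizontal lines the mean of 2. The NaCl libraries of unigenes 17814, 21127, 55744 and 50890 lie below those of CK18, and those of unigene 28233 lie above it in Nacl2.

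Sums by NR hit take all unigenes with that hit, also those without the carbonic anhydrase description. For CHLNCDRAFT_59547, 7 of 14 unigenes are members and hold 41.6% of its FPKM. The sum was 635 and 1015 FPKM in CK18, 523 and 467 FPKM in Nacl1 and 283 and 300.1 FPKM in Nacl2. It fell at both levels, with a log2 fold change of -1.21 (SE 0.22, limma adjusted p = 0.0152) in Nacl1 and -1.70 (SE 0.22, limma adjusted p = 0.00146) in Nacl2. The Nacl1 call was lost under 6 of 15 alternatives. These were FPKM as deposited (-0.70), read quality as a covariate, all 12 libraries in 1 fit, and leaving out CK18 replicate 2 or either Nacl1 library. For CHLNCDRAFT_59546, 3 of 11 unigenes are members and hold 14.1% of its FPKM. The sum was 227 and 372 FPKM in CK18, 169 and 185 FPKM in Nacl1 and 56.0 and 126 FPKM in Nacl2, and fell in Nacl2 with a log2 fold change of -2.03 (SE 0.44, limma adjusted p = 0.0109), a call that was lost without CK18 replicate 2. In Nacl1 the log2 fold change was -1.23 (SE 0.44, limma adjusted p = 0.109), not called, although 4 alternatives called it lower. Its members alone had 101 and 133 FPKM in CK18, 10.9 and 6.63 FPKM in Nacl1 and 4.78 and 7.25 FPKM in Nacl2, so most of what remained in the NaCl sums came from unigenes without the description.

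For CHLNCDRAFT_140736, the hit of the CAH2-matching unigene, 2 of 8 unigenes are members and hold 21.6% of its FPKM. The sum was 0.84 and 0.95 FPKM in CK18, 3.17 and 3.53 FPKM in Nacl1 and 21.5 and 19.1 FPKM in Nacl2, without overlap between the groups. It rose with a log2 fold change of 1.31 (SE 0.28, limma adjusted p = 0.0227) in Nacl1 and 4.14 (SE 0.28, limma adjusted p = 0.000178) in Nacl2. The Nacl2 call held under all 15 alternatives, and the Nacl1 call was lost under 9 of them. Of the members' NR sums, 4 of 19 tested were called in Nacl1, where 15.8% of all NR sums were called, and 8 of 19 in Nacl2, where 42.1% were. The 8 include CHLNCDRAFT_134547, the hit of Cluster-22884.0. This sum was at 0 in CK18 and Nacl1 and was tested only through Nacl2, so its call adds no support.

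**Figure D3:**
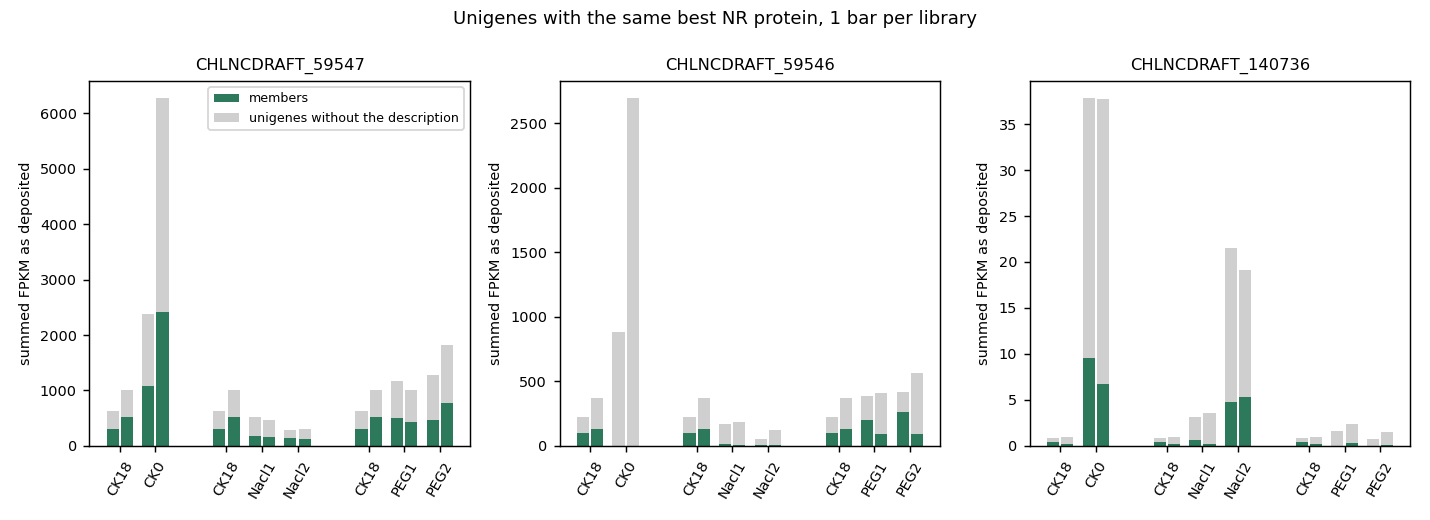
Summed FPKM of all unigenes with the NR hit CHLNCDRAFT_59547, CHLNCDRAFT_59546 or CHLNCDRAFT_140736, with 1 bar per library and CK18 drawn in each section. Green is the share of carbonic anhydrase members and grey that of unigenes without the description; members of CHLNCDRAFT_59546 hold 0.91 and 2.43 FPKM of the 887 and 2694 FPKM in CK0.

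The abundant gamma-type members rose at 0.8 M NaCl. In plants these proteins sit on the matrix side of complex I. Unigene 64958 (1327 bp), which matches the mitochondrial gamma carbonic anhydrase-like 1 protein, had 69.0 and 84.5 FPKM in CK18, 149.9 and 141 FPKM in Nacl1 and 284 and 239.7 FPKM in Nacl2. The FPKM of the 3 groups did not overlap and followed the NaCl level. The log2 fold change was 0.42 (SE 0.15, limma adjusted p = 0.152) in Nacl1, not called, and 1.53 (SE 0.15, limma adjusted p = 0.00274) in Nacl2. Nacl2 was also higher than Nacl1, with a log2 fold change of 1.11 (SE 0.15, limma adjusted p = 0.0101), a call that was lost without any 1 of the 4 NaCl libraries. Unigene 43459 (1755 bp, NR hit CHLNCDRAFT_20587), which matches mitochondrial gamma carbonic anhydrase 1, had 52.2 and 49.0 FPKM in CK18, 88.0 and 83.6 FPKM in Nacl1 and 145 and 137 FPKM in Nacl2. Its groups did not overlap either, and its log2 fold change was 0.25 (SE 0.14, limma adjusted p = 0.353) in Nacl1, not called, and 1.24 (SE 0.14, limma adjusted p = 0.00381) in Nacl2. Both Nacl2 calls against CK18 held under all 15 alternatives. The other 13 gamma-type members averaged under 2 FPKM. The third gamma-type call in Nacl2 was 1 of them, unigene 43456, with 0.36 and 0.44 FPKM in Nacl2 and at 0 in CK18. It passed the filter of at least 0.3 FPKM in 2 libraries only through Nacl2.

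Unigene 43456 shares the NR hit CHLNCDRAFT_57142 with 24 other unigenes, of which 1 is a member, and the members hold 4.89% of the FPKM of this sum. Along the salt series the sum was 1.71 and 1.65 FPKM in CK18, 5.66 and 5.01 FPKM in Nacl1 and 11.3 and 11.1 FPKM in Nacl2, without overlap. It rose in Nacl1 with a log2 fold change of 1.12 (SE 0.26, limma adjusted p = 0.0304), a call that was lost under 10 of 15 alternatives. It rose in Nacl2 with 2.44 (SE 0.26, limma adjusted p = 0.000668), which held under all 15. Nacl2 was higher than Nacl1 with a log2 fold change of 1.32 (SE 0.26, limma adjusted p = 0.0107), lost without Nacl1 replicate 2. In PEG1 the sum was 7.62 and 6.70 FPKM, with a log2 fold change of 1.52 (SE 0.34, limma adjusted p = 0.0289) relative to CK18. This call was lost with read quality as a covariate and without any 1 of the CK18 or PEG1 libraries. Between the controls the sum had 1.71 and 1.65 FPKM in CK18, against 18.3 and 15.2 FPKM in CK0, a log2 fold change of -2.42 (SE 0.35, limma adjusted p = 0.00556) that was lost with read quality as a covariate.

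As a comparison, 21 KO sums described as NADH dehydrogenase (ubiquinone) subunits were taken as other parts of complex I, a list chosen after the gamma-type values were known. In Nacl2 against CK18, 8 of 21 were called higher and 0 lower, with a median log2 fold change of 0.82. Over all KO sums 40.2% were called higher and the median was 0.68, so the complex I share was near the background. In Nacl1 against CK18, limma called 0 of 21 (4 at an unadjusted p under 0.05), where 21% of all KO sums were called.

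Of the 4 beta-type members that averaged at least 10 FPKM, 0 were called in Nacl1 or Nacl2 against CK18. Unigene 78394 (973 bp), whose best NR hit is a beta carbonic anhydrase of *Helicosporidium*, a colourless relative of *Chlorella*, had 88.8 and 98.9 FPKM in CK18, 96.3 and 99.4 FPKM in Nacl1 and 61.8 and 57.8 FPKM in Nacl2. Only the Nacl2 libraries lay below the control. The log2 fold change of -0.89 (SE 0.14, limma adjusted p = 0.00845) stayed under the fold limit. Unigene 78393 (2010 bp), with the same hit, had 19.7 and 26.0 FPKM in CK18, 32.1 and 21.3 FPKM in Nacl1 and 29.49 and 29.96 FPKM in Nacl2, and was called in none of the 9 comparisons. Unigene 78392 (2197 bp), also with this hit, had 5.95 and 6.56 FPKM in CK18, 14.5 and 13.1 FPKM in Nacl1 and 4.77 and 3.08 FPKM in Nacl2. It was highest in Nacl1, and Nacl2 was lower than Nacl1 with a log2 fold change of -1.55 (SE 0.27, limma adjusted p = 0.0172), a call that was lost without any 1 of the 4 NaCl libraries.

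Unigene 78891 (946 bp, NR hit CHLNCDRAFT_26430), which matches beta carbonic anhydrase 1 of *Mycobacterium*, had 30.4 and 51.9 FPKM in CK18, 77.8 and 64.8 FPKM in Nacl1 and 42.4 and 40.0 FPKM in Nacl2. Nacl1 was highest, with a log2 fold change of 0.33 (SE 0.27, limma adjusted p = 0.541) that was not called. Unigene 59213 (2842 bp, NR hit CHLNCDRAFT_12412) carries redoxin and thioredoxin domains, found in thiol oxidoreductases, beside the carbonic anhydrase domain. It had 8.72 and 11.5 FPKM in CK18, 16.7 and 11.8 FPKM in Nacl1 and 12.3 and 12.3 FPKM in Nacl2, with a log2 fold change of 0.05 (SE 0.26, limma adjusted p = 0.900) in Nacl2.

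The beta-type calls in Nacl2 were all in members under 5 FPKM. Unigene 82147 had 2.79 and 3.02 FPKM in Nacl2, against 0.56 and 0.50 FPKM in CK18, and was called higher (limma adjusted p = 0.0389). Unigene 28034 had 1.19 and 0.36 FPKM in Nacl2, against 4.26 and 4.22 FPKM in CK18, and was called lower (limma adjusted p = 0.0162). Unigene 58957 was above 0 only in Nacl2, at 0.80 and 1.34 FPKM, and passed the filter only through that group. Cluster-22884.0, with 1.30 and 1.69 FPKM in Nacl2 and at 0 in CK18 and Nacl1, also passed the filter of this fit only through Nacl2. Neither 82147 nor 28034 overlapped between these groups.

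**Figure D4:**
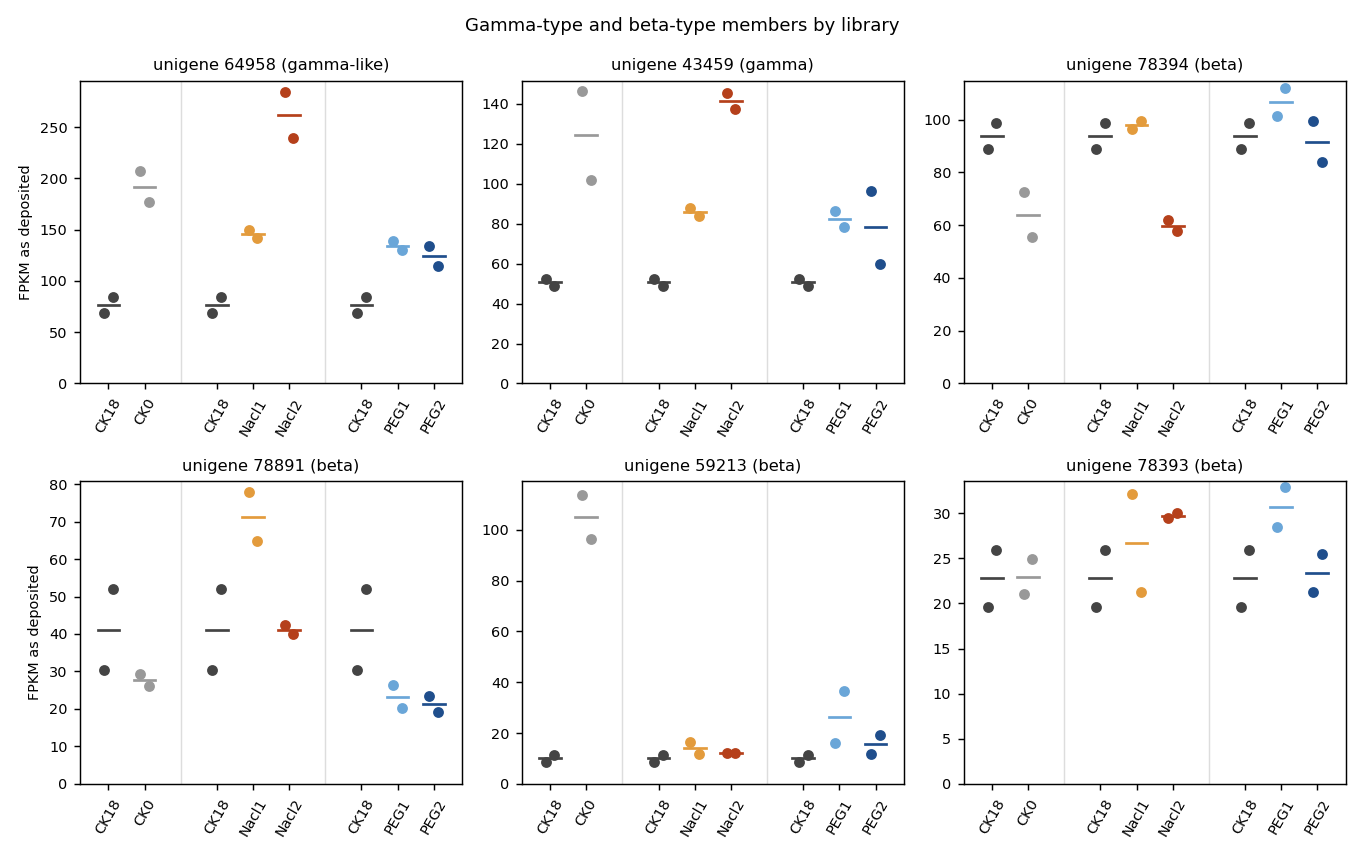
FPKM of 2 gamma-type and 4 beta-type unigenes in each library, with CK18 drawn in each section. Points are libraries and horizontal lines the mean of 2. Unigenes 64958 and 43459 step up from CK18 through Nacl1 to Nacl2, and unigene 59213 had 8.72 and 11.5 FPKM in CK18, against 114 and 96.5 FPKM in CK0.

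With PEG-6000 the abundant members were not called. In PEG1 against CK18, 8 of 43 tested members were called, all higher, where 14.2% of all unigenes were called, 9.49% higher and 4.69% lower. None of the 8 exceeded 6 FPKM. Unigene 82147 had 5.71 and 4.17 FPKM in PEG1, against 0.56 and 0.50 FPKM in CK18, a log2 fold change of 2.50 (SE 0.45, limma adjusted p = 0.0284). The gamma-type unigene 44580 had 3.68 and 2.74 FPKM in PEG1, against 0.25 and 0.19 FPKM in CK18, a log2 fold change of 2.90 (SE 0.64, limma adjusted p = 0.0441). Neither overlapped the control. Another 4 of the 8 were above 0 only in the PEG1 libraries, at 0.45 to 2.52 FPKM, and had a land plant or oomycete as best NR hit. They passed the filter of at least 0.3 FPKM in 2 libraries only through PEG1, so their calls add no support. The gamma-type unigene 64955 had 0.47 and 0.31 FPKM in PEG1 and was at 0 in CK18 and PEG2. It too passed this filter only through PEG1, so a call of it adds no support either. Without any 1 of the CK18 or PEG1 libraries 0 members were called. In PEG2 against CK18 limma called 0 of 43 members (10 at an unadjusted p under 0.05), where 0% of all unigenes were called. In PEG2 against PEG1, 4 of 43 were called, all lower and all listed at 0 in PEG2, where 7.89% of all unigenes were called, 1.93% higher and 5.96% lower. All 4 were at 0 in CK18 too and passed the filter of this fit only through PEG1, so these calls add no support. Without any 1 of the 6 libraries the count of calls was 0.

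The alpha-type members that fell with NaCl were present at high levels with PEG. Unigene 17814 had 87.4 and 117 FPKM in CK18, 184 and 76.0 FPKM in PEG1 and 237 and 82.4 FPKM in PEG2. The replicates of each PEG group lay on both sides of the control, and the log2 fold change was -0.30 (SE 0.67, limma adjusted p = 0.808) in PEG1 and 0.38 (SE 0.67, limma adjusted p = 0.877) in PEG2. Unigene 55744 had 99.7 and 175 FPKM in CK18, 200.3 and 91.9 FPKM in PEG1 and 183 and 141 FPKM in PEG2, all groups overlapping. Unigene 50890 had 65.7 and 64.3 FPKM in CK18, 66.6 and 68.8 FPKM in PEG1 and 102 and 56.3 FPKM in PEG2, the PEG2 replicates again on both sides of the control. With standard errors of this size only large changes could pass the test.

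The gamma-type unigene 64958 had 69.0 and 84.5 FPKM in CK18, 139 and 130.2 FPKM in PEG1 and 134 and 114 FPKM in PEG2. Every PEG library lay above the control in FPKM, but the log2 fold change was 0.30 (SE 0.21, limma adjusted p = 0.419) in PEG1 and 0.61 (SE 0.21, limma adjusted p = 0.296) in PEG2. The beta-type unigene 78891 had 30.4 and 51.9 FPKM in CK18, 26.4 and 20.3 FPKM in PEG1 and 23.6 and 19.1 FPKM in PEG2. Every PEG library lay below the control, with a log2 fold change of -1.30 (SE 0.35, limma adjusted p = 0.0708) in PEG1 and -0.99 (SE 0.35, limma adjusted p = 0.303) in PEG2, neither called. With all 12 libraries in 1 fit the PEG1 value was called lower, at -1.26 (limma adjusted p = 0.0223), as was the sum of its NR hit CHLNCDRAFT_26430, at -1.17 (limma adjusted p = 0.0127). The gamma-type unigene 57540 (6235 bp, NR hit CHLNCDRAFT_35390) had 14.1 and 1.06 FPKM in PEG2 and at most 0.23 FPKM in any other library, so that 1 library held nearly all of it.

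**Figure D5:**
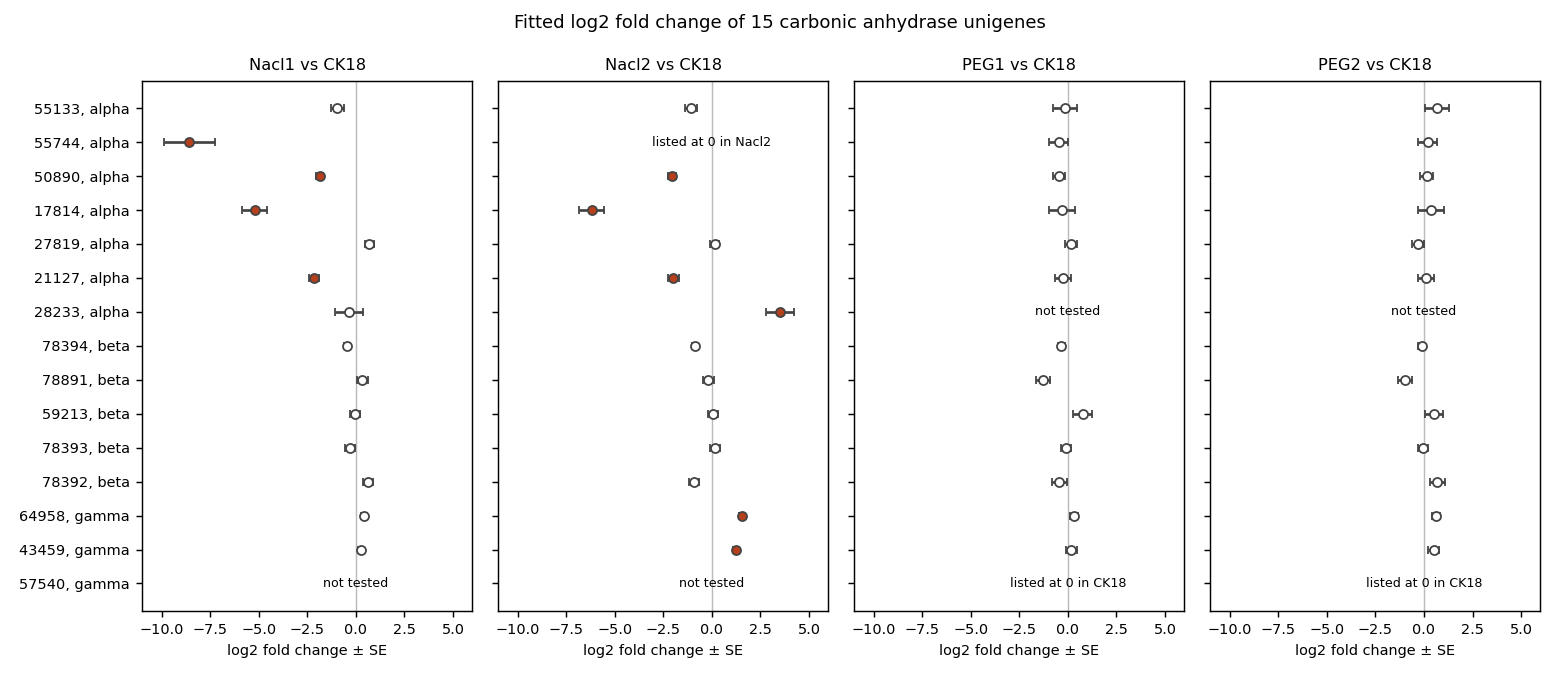
Fitted log2 fold change relative to CK18, with its SE, of the 15 unigenes named by the selection rule, from fits with 2 libraries a group. Filled points were called and open points were not, and unigenes at 0 in a group or not tested are marked in words; no point is filled for PEG1 or PEG2.

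NaCl and PEG were also compared directly, a comparison chosen after the values were known and fitted on all 12 libraries. The levels of the agents are matched only by rank. In Nacl2 against PEG2, 15 of 52 tested members were called, 4 higher and 11 lower, where 21.5% of all unigenes were called, 12.7% higher and 8.73% lower. The count was 9 without either Nacl2 library or PEG2 replicate 1. Unigene 17814 had 0.91 and 2.57 FPKM in Nacl2, against 237 and 82.4 FPKM in PEG2, a log2 fold change of -6.62 (SE 0.78, limma adjusted p = 0.000695). Unigene 50890 had 19.0 and 17.7 FPKM in Nacl2, against 102 and 56.3 FPKM in PEG2, a log2 fold change of -2.25 (SE 0.34, limma adjusted p = 0.00234). The groups did not overlap for either. Unigene 55744, listed at 0 in Nacl2, was called lower (limma adjusted p = 0.000311). The CAH2-matching unigene 28233 had 4.70 and 5.27 FPKM in Nacl2, against 0 and 0.14 FPKM in PEG2, and was higher with a log2 fold change of 4.96 (SE 0.84, limma adjusted p = 0.00385). These 4 calls held under all 20 alternatives. The gamma-type unigene 64958 had a log2 fold change of 0.86 (SE 0.19, limma adjusted p = 0.0116), under the fold limit.

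In Nacl1 against PEG1, 9 of 52 tested members were called, 1 higher and 8 lower, where 9.89% of all unigenes were called, 3.06% higher and 6.84% lower. The higher one was the beta-type unigene 78891, with 77.8 and 64.8 FPKM in Nacl1, against 26.4 and 20.3 FPKM in PEG1 and a log2 fold change of 1.58 (SE 0.29, limma adjusted p = 0.00844), a call that was lost without Nacl1 replicate 1 or either PEG1 library. The CAH1-matching unigene 17814 had 5.93 and 2.42 FPKM in Nacl1, against 184 and 76.0 FPKM in PEG1, a log2 fold change of -4.95 (SE 0.78, limma adjusted p = 0.00358). The groups overlapped for neither. Unigenes 55744, 50890 and 21127 were called lower too. The other 4 were the members seen only in PEG1, which passed the filter only through that group. Without PEG1 replicate 1 the count was 0, and without PEG1 replicate 2 it was 2.

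The CAH1-matching unigenes were higher in CK18 than in CK0. In CK18 against CK0, 12 of 35 tested members were called, 7 higher and 5 lower, where 32% of all unigenes were called, 13.7% higher and 18.3% lower. The share was close to the background. The count was 6 without CK0 replicate 1, 3 without CK18 replicate 1 and 4 without CK18 replicate 2. The CAH1-matching unigene 17814 had 87.4 and 117 FPKM in CK18, against 0.08 and 0.39 FPKM in CK0, a log2 fold change of 9.04 (SE 0.62, limma adjusted p = 0.0124). Its CK0 values were low, and the log2 fold change ranged from 6.83 to 9.86 over the alternatives. Unigene 21127 had 12.9 and 15.9 FPKM in CK18, against 0.83 and 2.04 FPKM in CK0, a log2 fold change of 4.15 (SE 0.62, limma adjusted p = 0.0166). This call was lost with read quality as a covariate. Unigene 55744 had 99.7 and 175 FPKM in CK18 and was listed at 0 in CK0 (limma adjusted p = 0.0105). These 3 unigenes were thus low on day 0 and in NaCl, and high in the day 18 control and in PEG. Unigene 50890, which also fell with NaCl, had 136 and 228 FPKM in CK0, against 65.7 and 64.3 FPKM in CK18. It was not called here, but on FPKM as deposited it was called lower in CK18, at -1.44 (limma adjusted p = 0.0427). The sum of its NR hit CHLNCDRAFT_59547 had 2380 and 6272 FPKM in CK0, against 635 and 1015 FPKM in CK18. Its log2 fold change of -1.43 (SE 0.62, limma adjusted p = 0.136) was not called, although some alternatives called it lower.

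The NR hit of the CAH1-matching unigenes, CHLNCDRAFT_59546, had a sum of 227 and 372 FPKM in CK18, against 887 and 2694 FPKM in CK0, nearly all of the CK0 sum from unigenes without the description. Its log2 fold change was -1.57 (SE 0.66, limma adjusted p = 0.125), not called, although 5 alternatives called it lower. Unigene 55133 had 140.2 and 281 FPKM in CK18, against 942 and 2192 FPKM in CK0. The groups did not overlap, but the log2 fold change of -2.02 (SE 0.68, limma adjusted p = 0.101) was not called. It was called on FPKM as deposited, at -2.86 (limma adjusted p = 0.0356).

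Of the beta-type members, unigene 59213 had 8.72 and 11.5 FPKM in CK18, against 114 and 96.5 FPKM in CK0, and fell with a log2 fold change of -2.54 (SE 0.27, limma adjusted p = 0.0141). The sum of its NR hit CHLNCDRAFT_12412, of which 12 of 13 unigenes are members, fell with a log2 fold change of -2.16 (SE 0.24, limma adjusted p = 0.00291). Both calls were lost with read quality as a covariate, and that of the unigene also without CK18 replicate 1. Unigene 78394 had 88.8 and 98.9 FPKM in CK18, against 72.5 and 55.4 FPKM in CK0, a log2 fold change of 1.40 (SE 0.22, limma adjusted p = 0.0186) that was lost on FPKM as deposited (0.56) and without either CK18 library. The alpha-type unigene 27819 had 32.4 and 46.9 FPKM in CK18, against 15.5 and 19.3 FPKM in CK0, called higher (limma adjusted p = 0.0256), a call that was lost under 6 of 12 alternatives.

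The CAH2-matching unigene 28233 had 0.41 and 0.20 FPKM in CK18, against 9.08 and 6.20 FPKM in CK0, and fell with a log2 fold change of -3.54 (SE 0.55, limma adjusted p = 0.0177), a call that was lost without CK0 replicate 1 and with read quality as a covariate. The sum of its NR hit CHLNCDRAFT_140736 had 0.84 and 0.95 FPKM in CK18, against 37.8 and 37.7 FPKM in CK0, a log2 fold change of -4.45 (SE 0.36, limma adjusted p = 0.00141) that was lost with read quality as a covariate. Unigene 28233 was thus higher than in CK18 on day 0 and in Nacl2, and the CAH1-matching unigenes were lower. As sums by NR hit, the contrast did not extend to day 0. There the sum of CHLNCDRAFT_59546 was 887 and 2694 FPKM, against 227 and 372 FPKM in CK18. The gamma-type unigene 64958 had 69.0 and 84.5 FPKM in CK18, against 207 and 177 FPKM in CK0, and unigene 43459 had 52.2 and 49.0 FPKM in CK18, against 147 and 102 FPKM in CK0. After scaling their log2 fold changes were -0.49 (SE 0.24, limma adjusted p = 0.203) and -0.43 (SE 0.24, limma adjusted p = 0.244). On FPKM as deposited both were called lower, at -1.32 and -1.27.

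The KO sums hold only rare members. K01673, the sum of 3 beta-type unigenes, had 1.17 and 3.17 FPKM in CK18 and 0.41 and 0 FPKM in Nacl1, and was listed at 0 in Nacl2. It was called lower in Nacl1 (limma adjusted p = 0.0154) and in Nacl2 (limma adjusted p = 0.00242), where 21% and 49.2% of all KO sums were called. The Nacl1 call was lost without CK18 replicate 2 or Nacl1 replicate 2. K01674 is the alpha-type unigene 5053, whose best NR hit is from chickpea. It had 1.90 and 2.11 FPKM in CK18, 3.29 and 1.91 FPKM in Nacl1 and 1.56 and 0.78 FPKM in Nacl2, and was called in none of the 9 comparisons. With libraries scaled on the KO sums instead of the unigenes it was called lower in Nacl2, at -1.71 relative to CK18 (limma adjusted p = 0.00825) and -1.35 relative to Nacl1 (limma adjusted p = 0.0264), where the values above gave -1.03 (SE 0.41) and -0.85 (SE 0.41). Without PEG2 replicate 2 it was called lower in PEG2 than in CK18 (limma adjusted p = 0.001), the PEG2 values being 0 and 1.08 FPKM. Among 2244 KO sums with a mean of at least 10 FPKM, those most like K01673 over the 12 libraries were K06966, an uncharacterized protein (Pearson r = 0.94), K01285, a Pro-X carboxypeptidase (r = 0.93), and K12602, a WD repeat protein (r = 0.93). Those most like K01674 were K13535, a cardiolipin-specific phospholipase (r = 0.96), K09481, the beta subunit of the SEC61 translocon (r = 0.94), and K06170, presenilin enhancer 2 (r = 0.92). These correlations are descriptions over libraries that share their treatments and their scaling.

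Other proteins that handle inorganic carbon were taken from a list of 184 unigenes, made up of Rubisco, PEP carboxylase, biotin-dependent carboxylases, carbamoyl phosphate synthase, cyanate lyase and 10 unigenes described as low-CO2 inducible proteins, bestrophin or formate/nitrite transporter. In Nacl1 against CK18, 11 of 82 tested were called higher and 6 lower, beside 4.46% and 4.56% of all unigenes. In Nacl2 against CK18, 18 were called higher and 14 lower, beside 22.4% and 12.9%. In PEG1 against CK18, 8 of 81 were called higher and 1 lower, beside 9.49% and 4.69%. In PEG2 limma called 0 of 81 (13 at an unadjusted p under 0.05).

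The sum of rbcS, the small subunit of the carbon dioxide-fixing enzyme Rubisco, was 56519 and 74069.7 FPKM in CK18, 56215 and 48709 FPKM in Nacl1 and 23559 and 23431 FPKM in Nacl2. It fell in Nacl2 with a log2 fold change of -1.70 (SE 0.14, limma adjusted p = 3.3e-05). The sum of rbcL, the large subunit, was 3.15 and 3.57 FPKM in CK18, 2.60 and 3.45 FPKM in Nacl1 and 13.6 and 11.1 FPKM in Nacl2, and rose in Nacl2 with a log2 fold change of 1.61 (SE 0.25, limma adjusted p = 0.000776). It rests on 1 unigene at levels far below those of rbcS, so it does not give the balance of the 2 subunits. PEP carboxylase, which fixes bicarbonate, had 23.7 and 29.3 FPKM in CK18, 94.6 and 79.6 FPKM in Nacl1 and 120.1 and 118 FPKM in Nacl2. It rose with a log2 fold change of 1.21 (SE 0.16, limma adjusted p = 0.00124) in Nacl1 and 1.93 (SE 0.16, limma adjusted p = 3.25e-05) in Nacl2. Cyanate lyase, which turns cyanate and bicarbonate into ammonia and carbon dioxide, had 2.31 and 4.36 FPKM in CK18, 30.1 and 24.4 FPKM in Nacl1 and 18.1 and 14.4 FPKM in Nacl2. It rose with a log2 fold change of 2.55 (SE 0.29, limma adjusted p = 0.000789) in Nacl1 and 2.07 (SE 0.29, limma adjusted p = 0.000424) in Nacl2. None of the 4 sums overlapped between Nacl2 and CK18.

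Among the 10 unigenes taken by description, the most abundant was Cluster-31803.18905, a low-CO2 inducible protein chosen after its values were seen. It had 2.51 and 3.08 FPKM in CK18, 4.89 and 4.37 FPKM in Nacl1 and 15.1 and 13.4 FPKM in Nacl2. It rose in Nacl2 with a log2 fold change of 2.08 (SE 0.25, limma adjusted p = 0.00430). In PEG1 it had 17.4 and 45.9 FPKM and rose with a log2 fold change of 2.79 (SE 0.55, limma adjusted p = 0.0343), while in PEG2 it had 2.46 and 4.16 FPKM, near the control. It had 2.51 and 3.08 FPKM in CK18, against 21.1 and 34.8 FPKM in CK0, and fell with a log2 fold change of -2.42 (SE 0.47, limma adjusted p = 0.0291). Cluster-31803.18902, also described as low-CO2 inducible, had 0.46 and 0.68 FPKM in Nacl2 and was listed at 0 in CK18, and was called higher (limma adjusted p = 0.0208). In the salt fit it passed the filter only through Nacl2.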

How the data were processed

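RNA-seq libraries of 6 groups with 2 libraries each were used. According to the study's methods, the authors assembled the reads with Trinity, clustered transcripts with Corset, mapped with Bowtie 2, counted with RSEM and annotated with Diamond. The deposited values are FPKM with 2 decimals; read counts were not used here, so count models were not fitted. The deposited annotation also gives the alignment score of the best NR and SwissProt hit, which entered no test. Members, gene lists and tests were chosen with earlier results of these data known. Unigenes with at least 0.3 FPKM in 2 libraries were scaled by median ratio, transformed as log2(FPKM + 0.1) and tested with limma 3.58.1 in R 4.3.3 (two-sided, trend, Benjamini-Hochberg adjustment). The salt fit held CK18, Nacl1 and Nacl2 (72365 unigenes, 3 residual degrees of freedom), the PEG fit CK18, PEG1 and PEG2 (73149, 3), the fit of controls CK0 and CK18 (65618, 2) and the direct comparison of NaCl with PEG all 12 libraries (103195, 6). The scripts were tested on simulated data. Named unigenes are the 12 members with the highest mean FPKM and, per comparison and direction, up to 4 called members with the largest fold change and at least 5 FPKM in the higher group; NR sums averaging at least 5 FPKM and the KO sums were also taken. Other members named were chosen after their values were seen. Alternatives were other pseudocounts, filters, scalings and sets of libraries, sums by NR hit, a replicate block, and a covariate that divides the libraries into 2 classes by the study's share of high-quality bases.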

Additional observations from a re-analysis of the deposited data

How the results depend on the processing

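Counts of members called depended on the setting. Of 61 called results of named unigenes and sums, 0 reversed direction under the alternatives run. With a pseudocount of 1, PEG1 against CK18 had 1 call and PEG2 against PEG1 had 0. Without a filter these counts were 0 and 0, and CK18 against CK0 had 6. With a mean of at least 1 FPKM, PEG1 against CK18 had 1, PEG2 against PEG1 0, Nacl2 against Nacl1 3 and Nacl1 against PEG1 5. With the NR hit as the unit, Nacl2 against CK18 had 8, CK18 against CK0 6, Nacl1 against PEG1 5 and Nacl2 against PEG2 7. With read quality as a covariate, Nacl1 against CK18 had 0, Nacl2 against CK18 9, PEG1 against CK18 5 and CK18 against CK0 4. With only the groups compared in the fit, PEG2 against PEG1 had 0. With a replicate block, Nacl1 against CK18 had 1 call, PEG1 against CK18 0 and PEG2 against PEG1 0; replicate numbers did not pair the libraries (correlation of replicate differences between -0.0409 and 0.0915 over 15 pairs of groups). Leaving out 1 library gave 0 to 2 calls in Nacl1 against CK18, 6 to 14 in Nacl2 against CK18, 0 to 6 in Nacl2 against Nacl1, 0 to 8 in PEG1 against CK18, 0 to 0 in PEG2 against CK18 and in PEG2 against PEG1, 3 to 8 in CK18 against CK0, 0 to 9 in Nacl1 against PEG1 and 9 to 17 in Nacl2 against PEG2. The cause of these changes was not tested. Among 175 named results that were not called, 69 changed sign under some alternative. FPKM without counts give no direct depth, and with 2 libraries a group, moderate changes could be missed.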
